A study of Homo sapiens with 4 samples.

Results

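The genes described here are 10 sensors of double-stranded RNA and interferon-stimulated genes, followed in SAS oral cancer cells after knockdown of STAU1. They were chosen by name as OAS1, OAS2, OAS3, OASL, IFIH1, DHX58, EIF2AK2, ISG15, IFIT1 and MX1, and all 10 were found among the 67008 genes of the deposited count table. SAS is a human tongue squamous carcinoma line. Ctrl cells (2 libraries) carried an shRNA against luciferase, shLuc, and shSTAU1 cells (2 libraries) carried an shRNA against STAU1. Genotype was labelled WT in both groups, and both had been infected with virus, which the study used to deliver its pLKO shRNA constructs, so the control is itself an infected cell and uninfected cells were not analysed here. Each group rests on 1 shRNA. The labels name the mouse fibroblast line C3H 10T1/2 as cell line beside a human organism and an oral cancer cell type, while the growth protocol gives SAS. The totals ran from 32206655 to 36301574 counts per library.

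Long double-stranded RNA is a sign of virus replication, but cells also make it from their own transcripts, among others from inverted Alu repeats. It is read by several families of proteins. The OAS enzymes make oligoadenylates, which start the decay of RNA. The helicases IFIH1 (MDA5) and RIGI act through the adaptor MAVS, and the helicase DHX58 (LGP2) modulates them. The kinase EIF2AK2 (PKR) stops translation, and TLR3 reads double-stranded RNA in endosomes. Signalling through MAVS and TLR3 leads to interferon, which raises interferon-stimulated genes such as ISG15, IFIT1 and MX1, and most of the sensors themselves. STAU1 is itself a protein that binds double-stranded RNA, and the study treats it as a competitor of ADAR1 for such RNA, so the comparison asks how this set of genes stood when STAU1 was lowered.

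Interferon acts on many genes through the interferon-stimulated response element, for which the letters GAAA, NN (any bases) and GAAA in a row were searched on both strands from 250 bases before to 50 bases after the gene start (RefSeq, GRCh38.p14). Promoters of 7 of the 10 genes were matched, and 6 of these held at least 1 match, as did 3.57% of all 35116 promoters in the table. The element is not particular to the set. Among the listed genes described below, 31 of 47 promoters of other interferon-stimulated genes held a match. So did 2 of 19 promoters of other sensors and adaptors and 4 of 24 of ligands, receptors and signalling genes. Matches were counted separately where they overlap. The match nearest the gene start is shown for each of the 6 genes that hold one. It is followed by that of IFITM1, an interferon-stimulated gene outside the set whose level rose. Capitals mark the 10 matched bases, which read in the opposite direction in IFIT1.
OAS3: agccgggcggGAAAACGAAAccagaaatcc
IFIH1: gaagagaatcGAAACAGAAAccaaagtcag
EIF2AK2: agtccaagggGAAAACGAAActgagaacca
ISG15: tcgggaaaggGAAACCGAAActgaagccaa
IFIT1: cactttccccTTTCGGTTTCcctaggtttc
MX1: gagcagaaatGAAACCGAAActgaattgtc
IFITM1: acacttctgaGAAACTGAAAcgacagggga

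These windows lie at chr12:112938452-112938481 (plus strand) for OAS3, chr2:162318686-162318715 (minus strand) for IFIH1, chr2:37156967-37156996 (minus strand) for EIF2AK2, chr1:1013380-1013409 (plus strand) for ISG15, chr10:89392510-89392539 (plus strand) for IFIT1, chr21:41420559-41420588 (plus strand) for MX1 and chr11:314024-314053 (plus strand) for IFITM1. With the first base of the gene counted as 0, the nearest match began at -12 in OAS3, -21 in IFIH1, -6 in EIF2AK2, -107 in ISG15, -103 in IFIT1 and 11 in MX1. OAS1 held no match of these letters in its window. A match is a description of the letters and not a measured binding site.

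**Figure D1:**
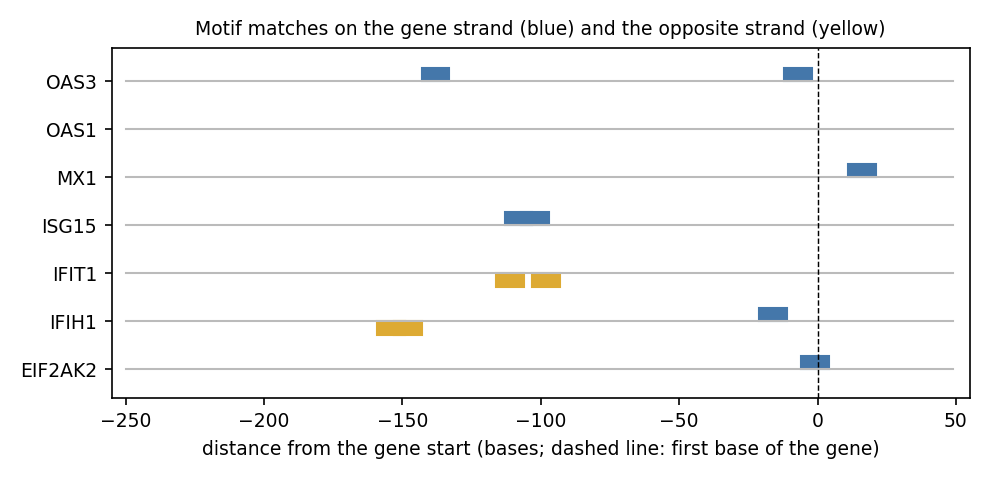
Positions of the searched letters (GAAA, NN, GAAA) in the promoter windows of the 7 genes with a RefSeq promoter, from 250 bases before the gene start (x axis, in bases). Blocks above a line are matches on the gene strand and blocks below it are matches on the opposite strand. IFIH1 holds 3 matches, OAS3, ISG15 and IFIT1 hold 2 each, EIF2AK2 and MX1 hold 1 each, and OAS1 holds none; matches that overlap, in ISG15 and IFIH1, merge into 1 block.

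The knockdown was examined first. STAU1 counts were 8362 and 8218 in Ctrl against 1449 and 1467 in shSTAU1, which is 16.6% of the Ctrl level in CPM (counts per 1000000 counts of a library, with library sizes scaled by the TMM method). All genes were fitted together by the quasi-likelihood method of edgeR, with p-values adjusted after Benjamini and Hochberg, and 14303 genes passed the filter on low counts. Of these, 1.13% were called higher and 1.48% lower in shSTAU1 at an adjusted p under 0.05 (161 and 211 genes, 2.6% in all). The share called was 12% with DESeq2, 2.54% with limma-voom, 2.82% with library size in place of TMM, 0.0443% without the filter, 1.99% after correcting for exon length and GC content, 28.6% with the replicate number as a block and 20.9% with that block and the correction together. It was 1.5% and 1.58% without Ctrl replicate 1 or 2 and 18.4% and 12.1% without shSTAU1 replicate 1 or 2, 11.1% at an adjusted p under 0.10, and 14.7% by a fold change of 1.5 joined to an unadjusted p under 0.05. The split was 132 higher and 272 lower with library size in place of TMM, and 773 and 676 with DESeq2. All p-values measure the spread between libraries, which the labels do not tie to separate cultures. With 2 libraries against 2, the smallest two-sided p that an exact permutation test allows is 0.333. All 9 epithelial markers examined passed the filter, with a summed level of 14740 to 16370 CPM in Ctrl and 15840 to 19120 CPM in shSTAU1. The sum is not specific to squamous cells, since it includes EPCAM, CDH1, KRT8 and KRT18. KRT8 and KRT18 averaged 5264 and 3048 CPM in Ctrl. Of the 9 markers, 1, KRT5, passed the test (log2 fold change 0.65, edgeR adjusted p = 0.0408). The others ran from -0.29 for CDH1, -0.16 for KRT18 and -0.12 for KRT8 to 0.89 for KRT14. Of 7 fibroblast markers, COL3A1, THY1 and DCN had at most 1 count in any library. The summed level of the 7 was 17.9 and 22.8 CPM in Ctrl and 11.1 and 10.2 CPM in shSTAU1, most of it from COL1A1, which fell (log2 fold change -1.35, edgeR adjusted p = 0.036), while COL1A2 had a log2 fold change of 1.01 (edgeR adjusted p = 0.185). Of 7 leukocyte markers, 4 (PTPRC among them) had at most 3 counts in every library, and the sum of the 7 was 0.30 and 1.04 CPM in Ctrl and 1.24 and 1.02 CPM in shSTAU1. CD14 had 5 and 5 counts in Ctrl and 40 and 15 in shSTAU1 (edgeR adjusted p = 0.111). ITGAM, with 1 and 27 counts in Ctrl and 3 and 10 in shSTAU1, had a lower mean in shSTAU1 and did not pass the filter. It made up 0.82 CPM of the sum in Ctrl replicate 2. CD3E had 10 counts in shSTAU1 replicate 2 and 0 in the other libraries. The part of these markers in the results was not tested.

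Of the 10 genes, 8 passed the filter on low counts, and 2 of these 8, the sensors IFIH1 and OAS3, fell after STAU1 knockdown. None was called higher. Beside this count, 1.48% of all tested genes were called lower. An unadjusted p under 0.05 in edgeR's test was reached by the same 2, or 25%, against 24.5% of all tested genes. The level of IFIH1 in shSTAU1 was 39.2% of that in Ctrl and the level of OAS3 was 54.4%. The kinase EIF2AK2, the sensor of the set with the most counts, and the interferon-stimulated genes ISG15, IFIT1 and MX1 did not pass the test. The median log2 fold change of the 8 genes was -0.17, against 0.0059 over all tested genes. In 4 of the 8 both shSTAU1 libraries lay on one side of both Ctrl libraries, as they did in 56.6% of all tested genes. In bulk RNA, fewer cells that express a gene and less of its RNA per cell cannot be told apart.

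**Figure D2:**
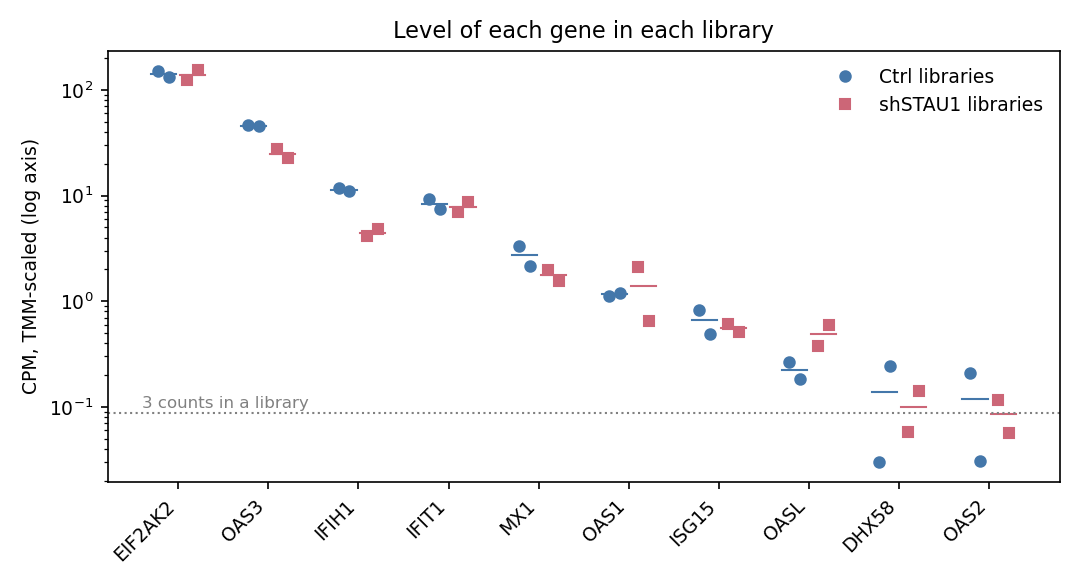
CPM of each of the 10 genes in each library on a log axis, with Ctrl libraries as blue circles, shSTAU1 libraries as red squares and group means (n = 2) as lines. The dotted line is the CPM of 3 counts. The groups stand apart for IFIH1, OAS3, MX1 and OASL, and the levels of DHX58 and OAS2 lie around the dotted line.

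IFIH1 (ENSG00000115267, GRCh38 chromosome 2, 162267079 to 162318703, minus strand) codes for MDA5, the helicase that assembles along long double-stranded RNA. It had 394 and 362 counts in Ctrl, or 11.7 and 11.1 CPM, and 144 and 169 counts in shSTAU1, or 4.14 and 4.78 CPM. Both shSTAU1 libraries were far below both Ctrl libraries, and within each group the libraries differed by at most 1.16-fold. Ctrl averaged 11.4 ± 0.47 CPM and shSTAU1 4.46 ± 0.46 CPM (SD, n = 2). The log2 fold change was -1.35 (standard error, SE, 0.22, 95% interval -1.87 to -0.83, edgeR adjusted p = 0.0358). Without Ctrl replicate 1 or Ctrl replicate 2 it was -1.33 and -1.39, with adjusted p of 0.073 and 0.0599 in edgeR's test of the other 3 libraries. When every gene with a read was tested, the adjusted p was 0.0989. Scaling does not enter the ratio of 2 genes within a library. For each 100 counts of RIGI, IFIH1 had 44.5 and 47.7 in Ctrl against 15.4 and 21.4 in shSTAU1.

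The other RIG-I-like helicases gave different values. RIGI, which senses short double-stranded RNA with a triphosphate end and was placed on a list of other sensors, had 26.4 and 23.2 CPM in Ctrl and 26.9 and 22.4 CPM in shSTAU1. Its groups overlapped, with a log2 fold change of -0.01 (SE 0.18, 95% interval -0.41 to 0.40, edgeR adjusted p = 0.983), which became 0.07 without Ctrl replicate 1 and 0.10 without shSTAU1 replicate 2. The interval of RIGI lies wholly above that of IFIH1. DHX58 (ENSG00000108771), on chromosome 17 from 42101404 to 42112733 on the minus strand, codes for LGP2, a helicase without signalling domains that modulates the other RIG-I-like receptors. It had 1 and 8 counts in Ctrl and 2 and 5 in shSTAU1 and did not pass the filter. The ratio of its summed counts, 9 in Ctrl and 7 in shSTAU1, was 0.74 with an exact 95% interval of 0.23 to 2.22 for counting error alone, so neither a fall as large as that of IFIH1 nor a rise of up to 2.22-fold could be told from no change at this depth. The adaptor MAVS, through which IFIH1 and RIGI signal, had 39.7 and 47.8 CPM in Ctrl and 39.4 and 41.2 CPM in shSTAU1 (log2 fold change -0.12, edgeR adjusted p = 0.672).

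The OAS genes differed widely in their counts. OAS1 (ENSG00000089127, chromosome 12 from 112906777 to 112933222), OAS3 (ENSG00000111331, 112938352 to 112973249) and OAS2 (ENSG00000111335, 112978395 to 113011723) lie next to each other on the plus strand, and OASL (ENSG00000135114, 121019111 to 121039242) lies apart on the minus strand of the same chromosome. OAS1, OAS2 and OAS3 are active synthetases built from 1, 2 and 3 OAS units, and OASL is an inactive relative with ubiquitin-like domains at its end.

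OAS3 had 1563 and 1480 counts in Ctrl, or 46.5 and 45.2 CPM, and 954 and 795 counts in shSTAU1, or 27.4 and 22.5 CPM. Both shSTAU1 libraries were below both Ctrl libraries. Ctrl averaged 45.8 ± 0.90 CPM and shSTAU1 24.95 ± 3.47 CPM (SD, n = 2). The log2 fold change was -0.88 (SE 0.16, 95% interval -1.25 to -0.50, edgeR adjusted p = 0.0389). Without Ctrl replicate 1 or Ctrl replicate 2 it was -0.87 and -0.90, with adjusted p of 0.1 and 0.095 in edgeR's test, and the adjusted p was 0.102 when every gene with a read was tested. For each 100 counts of RIGI, OAS3 had 176 and 195 counts in Ctrl and 102 and 101 counts in shSTAU1.

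OAS1 had 38 and 39 counts in Ctrl, or 1.13 and 1.19 CPM, and 74 and 23 counts in shSTAU1, or 2.13 and 0.65 CPM. Its shSTAU1 libraries differed by 3.27-fold and lay on either side of the Ctrl libraries, which differed by 1.05-fold. The log2 fold change of 0.26 (SE 0.59, edgeR adjusted p = 0.821) turned to -0.83 without shSTAU1 replicate 1 and was 0.85 without shSTAU1 replicate 2. OASL had 9 and 6 counts in Ctrl, or 0.27 and 0.18 CPM, and 13 and 21 counts in shSTAU1, or 0.37 and 0.59 CPM. Both shSTAU1 libraries were above both Ctrl libraries, but the log2 fold change of 1.09 had an SE of 0.67 and a 95% interval of -0.47 to 2.64, and did not pass the test (edgeR adjusted p = 0.344). OAS2 had 7 and 1 counts in Ctrl and 4 and 2 in shSTAU1 and did not pass the filter. The ratio of its summed counts, 8 in Ctrl and 6 in shSTAU1, was 0.71 (exact 95% interval 0.20 to 2.33 for counting error alone).

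Per kilobase of merged exons, OAS3 made up 95.6% and 95.7% of the summed level of OAS1, OAS2 and OAS3 in the Ctrl libraries and 88.1% and 95.1% in the shSTAU1 libraries. The lower share in shSTAU1 replicate 1 goes with the high OAS1 count of that library. The libraries were captured with probes, and how far capture differed between these genes was not tested.

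EIF2AK2 (ENSG00000055332), on chromosome 2 from 37099210 to 37157065 on the minus strand, codes for PKR, the kinase that phosphorylates the initiation factor eIF2 once bound to double-stranded RNA. It had 152.6 and 133 CPM in Ctrl and 125 and 153 CPM in shSTAU1, from 4361 to 5413 counts per library. The groups overlapped. The log2 fold change was -0.04 with an SE of 0.15 and a 95% interval of -0.39 to 0.31 (edgeR adjusted p = 0.905), and its sign changed without Ctrl replicate 1 (0.05) and without shSTAU1 replicate 1 (0.10). This interval lies wholly above that of OAS3. For each 100 counts of EIF2AK2, OAS3 had 30.5 and 33.9 counts in Ctrl and 21.9 and 14.7 counts in shSTAU1. Its activator PRKRA had 42.3 and 36.5 CPM in Ctrl and 36.6 and 40.4 CPM in shSTAU1, also with overlap (log2 fold change -0.03, edgeR adjusted p = 0.919). ADAR, whose product edits double-stranded RNA and lowers its recognition as foreign, had 435 and 464 CPM in Ctrl and 473 and 495 CPM in shSTAU1, a log2 fold change of 0.11 (SE 0.12, edgeR adjusted p = 0.615).

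ISG15, IFIT1 and MX1 are effectors rather than sensors. ISG15 (ENSG00000187608, chromosome 1 from 1001138 to 1014540, plus strand) codes for a ubiquitin-like protein that is joined to other proteins. It had 28 and 16 counts in Ctrl and 21 and 18 counts in shSTAU1, or 0.49 to 0.83 CPM over the 4 libraries. The groups overlapped, and the log2 fold change of -0.25 had a 95% interval of -1.55 to 1.06 (edgeR adjusted p = 0.818) and became 0.17 without Ctrl replicate 1. IFIT1 (ENSG00000185745, chromosome 10 from 89392546 to 89406486, plus strand) binds RNA whose cap lacks the methyl groups of host mRNA. It had 9.37 and 7.39 CPM in Ctrl and 6.92 and 8.74 CPM in shSTAU1, again with overlap. Its log2 fold change was -0.10 (SE 0.24, 95% interval -0.66 to 0.47, edgeR adjusted p = 0.837), and 0.07 and 0.06 without Ctrl replicate 1 or shSTAU1 replicate 1.

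MX1 (ENSG00000157601, chromosome 21 from 41420304 to 41459214, plus strand) codes for a dynamin-like GTPase that blocks virus ribonucleoproteins. It had 111 and 70 counts in Ctrl, or 3.30 and 2.14 CPM, and 69 and 55 counts in shSTAU1, or 1.98 and 1.56 CPM. The shSTAU1 libraries lay below the Ctrl libraries, with Ctrl replicate 2 close to shSTAU1 replicate 1. The log2 fold change of -0.62 (SE 0.38, 95% interval -1.51 to 0.27) did not pass the test (edgeR adjusted p = 0.348) and was -0.29 without Ctrl replicate 1. Exons of OAS1, EIF2AK2, ISG15 and MX1 overlap other genes on the opposite strand over up to 1.86%, 3.73%, 3.83% and 2.74% of their length by 1 such gene, and the strand setting of the counting is not given in the sources used here.

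**Figure D3:**
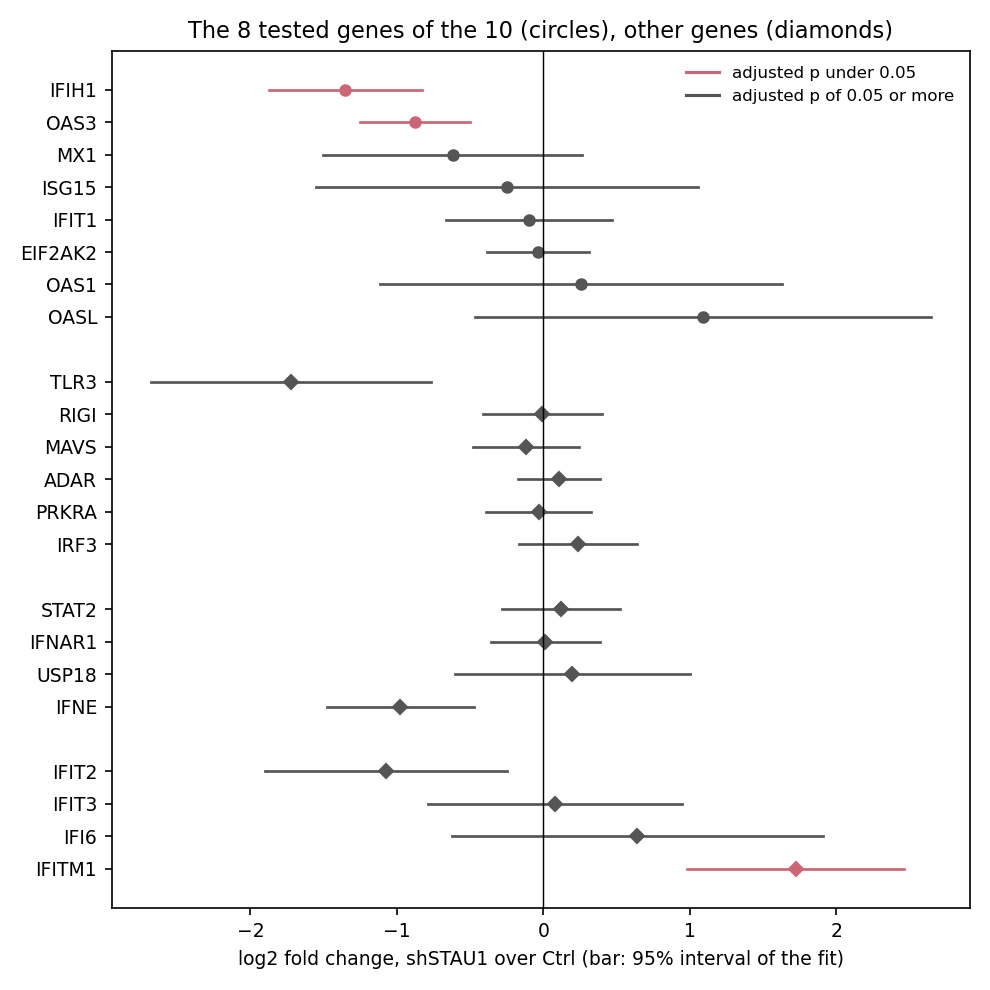
Log2 fold change of shSTAU1 over Ctrl (x axis) with the 95% interval of edgeR's fit for the 8 tested genes of the set (circles) and for other genes of the pathway (diamonds), with genes past an adjusted p of 0.05 in red. IFIH1 (-1.35) and OAS3 (-0.88) lie wholly below 0 and past the threshold, and the interval of EIF2AK2 spans -0.39 to 0.31.

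**Figure D4:**
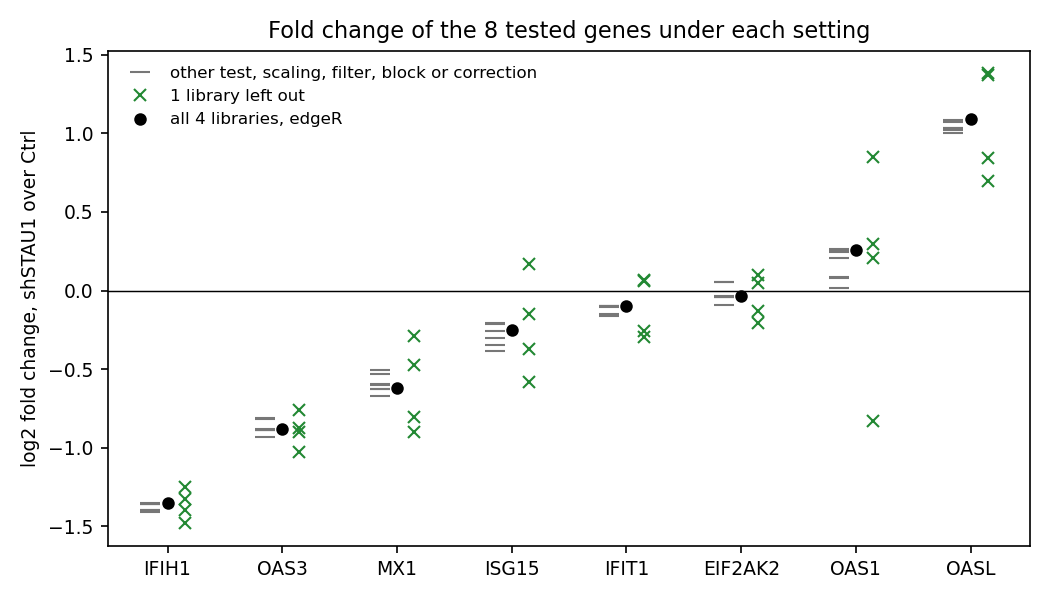
Log2 fold change (y axis) of the 8 tested genes with all 4 libraries in edgeR (black), with 1 library left out (green crosses) and under the other tests, scalings, filters, block and correction (grey dashes). IFIH1 and OAS3 stay below 0 throughout, while OAS1 spans -0.83 to 0.85 with 1 library left out.

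Levels of different genes were compared per kilobase of merged exons. Capture with probes may differ between genes, which was not tested, so the order is one of captured RNA. EIF2AK2 was highest, with 13.3 CPM per kilobase in Ctrl and 12.95 in shSTAU1, followed by OAS3 with 5.56 and 3.02. IFIH1 came next in Ctrl, with 2.29 and 2.17 in its libraries against 2.03 and 1.60 for IFIT1. In shSTAU1 this order was the opposite, with 0.81 and 0.94 for IFIH1 against 1.5 and 1.9 for IFIT1, and in neither group did the libraries of these genes overlap. ISG15 had 0.70 in Ctrl and 0.59 in shSTAU1. MX1 (0.32 and 0.21) and OAS1 (0.23 and 0.28) were neighbours whose libraries overlapped in shSTAU1. OASL (0.064 and 0.14), DHX58 (0.036 and 0.026) and OAS2 (0.019 and 0.014) were lowest, and the libraries of DHX58 overlapped those of OASL in Ctrl and those of OAS2 in both groups. With the longest protein-coding transcript as the length, a choice made after the data were examined, the order was the same in both groups.

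Of the 30 other sensors and adaptors on a list, 28 were tested, 14 with a positive and 14 with a negative log2 fold change and a median of 0.03. None was called by edgeR's test, while 5, or 17.9%, had an unadjusted p under 0.05, against 24.5% of all tested genes, and DESeq2 called 2, against 12% of all genes it tested. TLR3, the endosomal sensor, had the lowest value. It had 91 and 100 counts in Ctrl and 23 and 38 counts in shSTAU1, or 2.71 and 3.05 against 0.66 and 1.08 CPM. The groups did not overlap, but the log2 fold change of -1.73 (SE 0.41) missed the threshold (edgeR adjusted p = 0.0655). The adjusted p was 0.0217 with DESeq2, and in edgeR 0.0475 and 0.0141 without shSTAU1 replicate 1 or 2 and 0.119 and 0.184 without Ctrl replicate 1 or 2. NLRP1, an inflammasome sensor, had -0.62 (adjusted p = 0.184) and the DNA sensor CGAS had -0.37 (adjusted p = 0.326). At the other end were ILF2, part of a complex that binds double-stranded RNA, with 0.58 (adjusted p = 0.101), and the helicase DDX1 with 0.34 (edgeR adjusted p = 0.176). The kinase target IRF3, which switches on interferon genes, had 16.1 and 18.5 CPM in Ctrl and 19.99 and 20.9 CPM in shSTAU1 (log2 fold change 0.24, adjusted p = 0.432). ZBP1, a sensor of left-handed nucleic acid, was listed at 0 in all 4 libraries. So were the widely expressed genes STING1 and LY6E, chosen after their values were seen, so a 0 in this table does not show that a gene was silent. Whether the capture probes or the counting left such genes out was not tested.

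Of the interferon ligands induced through double-stranded RNA, IFNL1 was listed at 0 in all 4 libraries, and IFNB1 had 5 counts in Ctrl replicate 2 and 0 in the other 3. A count of 0 allows up to 3 counts, or 0.085 to 0.092 CPM per library, for counting error alone, and only where the gene could be captured and counted. IFNE, an interferon known for constitutive expression in epithelia, had 356 and 335 counts in Ctrl and 179 and 192 in shSTAU1. Its groups did not overlap, and the log2 fold change of -0.98 (SE 0.22) missed the threshold (edgeR adjusted p = 0.0592). The adjusted p was 0.0115 with DESeq2, and in edgeR 0.0176 and 0.0207 without shSTAU1 replicate 1 or 2 and 0.205 and 0.199 without Ctrl replicate 1 or 2. Of the 30 genes of interferon ligands, receptors and signalling, 19 were tested, 10 positive and 9 negative with a median of 0.01. None was called by edgeR's test and DESeq2 called 1, against 12% of all genes it tested. An unadjusted p under 0.05 was reached by 5, or 26.3%, against 24.5% of all tested genes.

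The receptor chain IFNAR1 had 28.9 and 26.3 CPM in Ctrl and 26.2 and 29.5 CPM in shSTAU1 (log2 fold change 0.01, adjusted p = 0.966), and -0.04 with library size in place of TMM. STAT2, which carries the interferon signal to the nucleus, had 33.8 and 31.3 CPM in Ctrl and 39.8 and 31.0 CPM in shSTAU1 (0.12, edgeR adjusted p = 0.699). The groups overlapped for both genes. USP18, which removes ISG15 and restrains the receptor, had 91 and 69 counts in Ctrl and 82 and 112 in shSTAU1 (log2 fold change 0.20, adjusted p = 0.756). The feedback inhibitor SOCS3 had -1.11 (adjusted p = 0.0926), the factor IRF1 had -0.57 (adjusted p = 0.112) and the kinase JAK1 had 0.47 (edgeR adjusted p = 0.114). The receptor chains IFNGR2 and IFNLR1 had 0.53 (adjusted p = 0.404) and 0.42 (adjusted p = 0.389). IRF7 had 7 counts in Ctrl replicate 2, 1 in shSTAU1 replicate 2 and 0 in the others. IRF9 was listed at 0 in all 4 libraries, and 48.4% of its exon length is shared on the same strand with a read-through gene, as is 44.2% of IFNAR2, which had 5 to 14 counts. The read-through genes over IRF9 and IFNAR2 were themselves listed at 0 in every library. The part of these overlaps in the counts was not tested, and no direction is given for IRF9 or IFNAR2.

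Among 59 other interferon-stimulated genes, 46 were tested, 21 positive and 25 negative, with a median log2 fold change of -0.005. One, IFITM1, was called by edgeR's test and rose, against 1.13% of all tested genes. An unadjusted p under 0.05 was reached by 9, or 19.6%, against 24.5% of all tested genes. IFITM1, a membrane protein that hinders virus entry, had 79 and 79 counts in Ctrl and 340 and 211 counts in shSTAU1, or 2.35 and 2.41 against 9.77 and 5.97 CPM. Both shSTAU1 libraries were above both Ctrl libraries, with a log2 fold change of 1.72 (SE 0.32, edgeR adjusted p = 0.0396). The adjusted p was 0.054 with limma-voom, 0.0566 after correcting for exon length and GC content, 0.105 without the filter, and 0.06 and 0.0578 without Ctrl replicate 1 or 2. Its close paralog IFITM2 had 10 and 5 counts in Ctrl and 67 and 37 in shSTAU1 (log2 fold change 2.70, edgeR adjusted p = 0.0635). The paralogs overlap on the same strand, over 32.5% of the exon length of IFITM1 and 22.7% of that of IFITM2. Reads of these paralogs may be split between them, which also limits the value of IFITM1. UBE2L6, the enzyme that carries ISG15 to its targets, had 0.94 (edgeR adjusted p = 0.175). It was at 0.31 without shSTAU1 replicate 1 (adjusted p = 0.44), at 1.36 without shSTAU1 replicate 2 (adjusted p = 0.000781), and passed with DESeq2 (adjusted p = 0.0469).

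Genes of the IFIT family went apart in their values. IFIT2 had 25.0 and 15.9 CPM in Ctrl and 12.9 and 6.45 CPM in shSTAU1, with groups that did not overlap and a log2 fold change of -1.08 that missed the threshold (SE 0.35, edgeR adjusted p = 0.121). The adjusted p was 0.0146 with DESeq2 and 3.21e-08 in edgeR with the replicate number as a block, and the log2 fold change was -1.67 without shSTAU1 replicate 1 (adjusted p = 1.65e-06) and -0.68 without shSTAU1 replicate 2 (adjusted p = 0.0852). IFIT3 had 8.53 and 4.86 CPM in Ctrl and 9.11 and 5.07 CPM in shSTAU1, a log2 fold change of 0.08 (SE 0.37, adjusted p = 0.916), whose sign changed in some settings. TRIM5, a restriction factor of retroviruses, had 7.76 and 7.33 CPM in Ctrl and 2.21 and 4.19 CPM in shSTAU1 (log2 fold change -1.24, adjusted p = 0.0837), and TRANK1 had -1.24 (edgeR adjusted p = 0.324). TRIM5 passed with DESeq2 (adjusted p = 0.017). Without shSTAU1 replicate 1, TRANK1 was at -3.05 (edgeR adjusted p = 0.000466) and without shSTAU1 replicate 2 at -0.48 (0.593), so its value rests on shSTAU1 replicate 2. IFI6 had 24 and 13 counts in Ctrl and 32 and 29 in shSTAU1 (0.64, adjusted p = 0.496). RSAD2 (viperin), which is among the most strongly induced genes of an interferon response, had 1 count in shSTAU1 replicate 2 and 0 in the other 3 libraries.

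**Figure D5:**
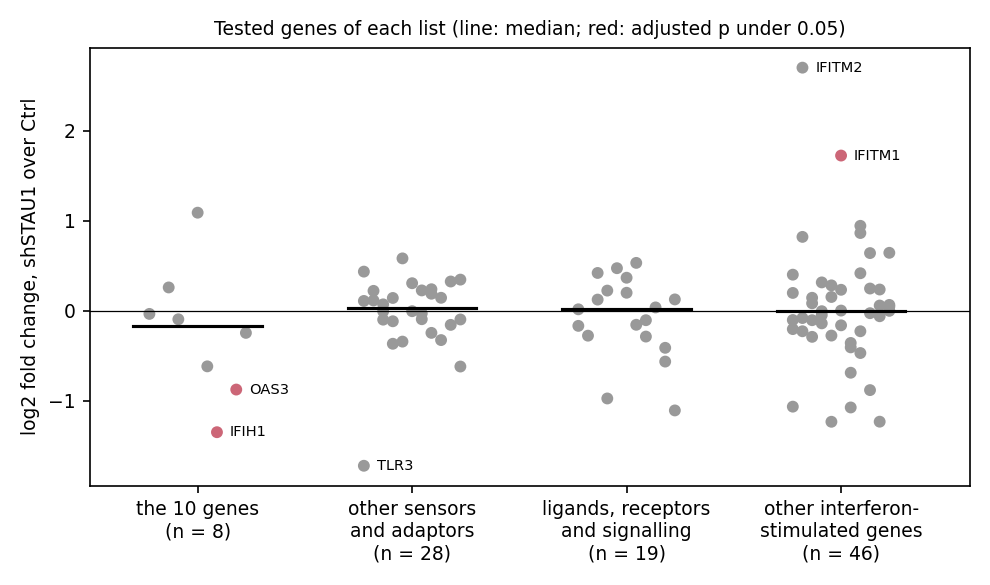
Log2 fold change of shSTAU1 over Ctrl (y axis) for each tested gene of the set of 10 and of the 3 lists, with the median as a line and genes past an adjusted p of 0.05 in red. Medians lie at -0.17, 0.03, 0.01 and -0.005 from left to right, and the genes in red are IFIH1, OAS3 and IFITM1.

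The response element printed above is held by genes with different values. IFIH1 and OAS3, which fell, and EIF2AK2, IFIT1 and ISG15, whose groups overlapped, all hold it, as does IFITM1, which rose. The 6 genes of the set with a match all had a negative log2 fold change, 2 of them past the threshold, though the sign of EIF2AK2, ISG15 and IFIT1 changed with 1 library left out. OAS1, without a match, had a positive one, which turned to -0.83 without shSTAU1 replicate 1. Over all 267 tested genes whose promoter window holds a match, 133 had a positive and 134 a negative log2 fold change, with 6 called higher and 5 lower. Over the 9709 tested genes whose window holds none, 5126 were positive and 4583 negative, with 125 called higher and 145 lower. Of all tested genes, 2.6% were called. Whether the match bears on the calls was not tested. Of the other interferon-stimulated genes that were tested and hold a match, 13 were positive and 12 negative.

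The mean profile of the 8 tested genes over the 4 libraries, as log2 CPM centred on each gene's mean, was 0.26 and 0.04 in Ctrl and -0.10 and -0.20 in shSTAU1. By Euclidean distance over these 4 libraries, the genes outside the set and the lists that were nearest to it were TTBK2, RNF121, ITGA6, TPCN2 and RAPH1, with distances of 0.018 to 0.037. With only 4 libraries many genes have such a profile, and the nearness is a description.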

How the data were processed

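Total RNA was extracted with Trizol and made into libraries with the TruSeq RNA Exome kit, which captures coding sequence with probes. The authors deposited whole-number counts per gene, without normalization, under versioned Ensembl identifiers. The submitters' processing notes name the build hg38 and the tool Partek, with no role. How reads were aligned and counted, with which strand setting and gene models, is not given in the sources used here. Positions and exon lengths were taken from GENCODE 29 (GRCh38), which may not be the authors' release, and promoter sequences from RefSeq (GRCh38.p14).

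Counts of all genes were tested with edgeR 4.0.16 (R 4.3.3): filterByExpr at default settings (14303 genes, 99.9% of the counts), TMM scaling, the quasi-likelihood test without covariates and Benjamini-Hochberg adjustment over all tested genes, with a threshold of 0.05. The paper states no test for this experiment. Intervals of fold changes are 95% intervals of this fit, and those of summed counts cover counting error alone. Replicates of a group differed beyond counting noise (a chi-square divided by its degrees of freedom was 25.4 in Ctrl and 61.6 in shSTAU1) and all 4 libraries were kept.

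The alternatives were DESeq2 1.42.0, limma-voom (limma 3.58.1), library size, no filter, the replicate number as a block, an offset for exon length and GC content with and without that block (98.99% of tested genes have both values), other call rules and leaving out each library. The 10 genes and the lists were chosen with earlier results of these data known. Genes outside the set were named by a written rule: RIGI, TLR3, MAVS and other central pathway genes whatever their value, and from each list those past the threshold and the 3 highest and 3 lowest fold changes. A few genes that this rule or the lists name are not reported here. The marker genes KRT5, KRT8, KRT14, KRT18, CDH1, COL1A1, COL1A2, CD14, ITGAM and CD3E were named after their values were seen. The pipeline was tested on simulated data.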

Additional observations from a re-analysis of the deposited data

How the results depend on the processing

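IFIH1 and OAS3 were lower under every alternative. Their adjusted p passed 0.05 except without the low-count filter (log2 fold change -1.36, adjusted p = 0.0989 for IFIH1 and -0.89, adjusted p = 0.102 for OAS3) and without either Ctrl library. With 1 library left out the log2 fold change ran from -1.48 to -1.25 for IFIH1 and from -1.03 to -0.76 for OAS3, each in an edgeR fit with 1 residual degree of freedom, which assumes that the lone library varies like the pair. The number of the 10 genes called was 2, 0 without a filter, and 0 to 2 with 1 library left out. STAU1 passed in all.

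The count of 372 called genes became 1449 with DESeq2, 11 without a filter (more low genes tested), 1585 at an adjusted p under 0.10, 2098 by an unadjusted p under 0.05 joined to a 1.5-fold change, and 214 to 2625 with 1 library left out. Of the 28 sensors, 19 signalling genes and 46 other interferon-stimulated genes tested, 0, 0 and 1 were called. With DESeq2 the counts were 2, 1 and 6, against 12% of all genes it tested. At an adjusted p under 0.10 they were 1, 2 and 5, against 11.1% of all tested genes. By the fold rule they were 2, 2 and 7, against 14.7% of all tested genes. Other interferon-stimulated genes had 0 called with limma-voom, without a filter and after the length and GC correction. The causes were not tested.

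The replicate number is shared between groups, but no source says that it marks a batch. Over tested genes, libraries with the same number deviated together (r = 0.36 between deviations from group means, and 0.587 among 4827 genes whose log2 CPM exceeded 5). With it as a block, 4087 genes were called, or 28.6% of all tested genes. With the GC and length correction added, 2994 were called, or 20.9%. Among them were IFIH1 and OAS3 alone of the 10 genes. Of the 28, 19 and 46 tested genes of the 3 lists, 6, 5 and 12 were called (7, 5 and 11 with the correction). Of the other genes named, TLR3 (adjusted p = 0.000256 and 0.0103), IFNE (0.000148 and 0.0045), IFIT2 (3.21e-08 and 0.00209), UBE2L6 (1.19e-05 and 0.0108), IFITM2, TRIM5, SOCS3, IRF1, JAK1, ILF2 and NLRP1 passed in both of these edgeR fits, and TRANK1 (0.00218 and 0.0617) and DDX1 (0.0106 and 0.0906) in the first. With DESeq2, TLR3, IFNE, IFIT2, TRIM5, UBE2L6 and ILF2 (0.0273) passed as well. Without shSTAU1 replicate 1 or 2, one or both fits also called TLR3, IFNE, IFIT2, IFITM2, TRIM5, SOCS3, IRF1, JAK1, ILF2, DDX1, NLRP1, UBE2L6 and TRANK1.

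Signs of small values turned. With the length and GC correction, without and with the block, EIF2AK2 was at 0.055 and 0.052, MAVS at 0.029 and 0.033, and IFIT3 at -0.043 and -0.059. IFNAR1 was at -0.039 with library size. With 1 library left out the range was -0.83 to 0.85 for OAS1, -0.21 to 0.10 for EIF2AK2, -0.58 to 0.17 for ISG15, -0.295 to 0.068 for IFIT1, -0.146 to 0.099 for RIGI, -0.262 to 0.021 for MAVS, -0.134 to 0.062 for PRKRA, -0.095 to 0.099 for IFNAR1, -1.203 to 0.257 for IFNAR2, -0.068 to 0.27 for STAT2, -0.051 to 0.396 for USP18 and -0.403 to 0.529 for IFIT3. DESeq2 gave no adjusted p for OASL and ISG15. Depth limits OAS2 and DHX58 to counts.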
